A study of Mus musculus with 12 samples.

Results

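The genes described here are 10 that mark alveolar type 2 cells, the surfactant-making cells of the lung, or build and process the surfactant they secrete: *Sftpc*, *Sftpb*, *Sftpa1*, *Sftpd*, *Abca3*, *Lamp3*, *Napsa*, *Etv5*, *Cxcl15* and *Ctsh*. They were chosen by name, with earlier results of these RNA sequencing libraries of liver cancer organoid cells already known. Those included the level of *Sftpc* and the comparison after 5-FU. They are 10 of the 47069 genes counted there. Because measured values entered the choice, the levels and differences of the 10 genes are given as descriptions with their errors and without P values. Counts of how many of them passed the threshold of a fit over all genes stand beside the share of all genes that did so, and nothing is read from them. The question asked of them was whether the other genes follow *Sftpc* from library to library or after treatment with 5-FU.

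Pulmonary surfactant is a film of phospholipid and protein that lowers surface tension in the air spaces. Alveolar type 2 cells make the small hydrophobic proteins SP-B and SP-C as longer precursors, trim them with proteases in the late secretory pathway, pack them with phospholipid into lamellar bodies and release them by exocytosis, whereas the collectins SP-A and SP-D bind sugars on microbes and act in innate defense. *Sftpc* is expressed almost exclusively in this cell type, while *Ctsh*, *Lamp3* and *Etv5* are also used in other tissues.

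All 12 libraries came from organoids of liver cancer grown from C57BL/6 mice of genotype LGR5-DTRGFP+, whose *Lgr5* locus drives a diphtheria toxin receptor and GFP and whose tumors had been induced with diethylnitrosamine. Cells sorted as LGR5+ or LGR5- by GFP, each untreated or treated with the pyrimidine analog 5-FU (5-fluorouracil), made 4 groups of 3 libraries: untreated LGR5-, untreated LGR5+, 5-FU LGR5- and 5-FU LGR5+. The study's methods state a 5-FU concentration for organoid cultures, but the sources used here tie neither a dose nor a duration to the sequenced cells, nor do they say whether the numbered replicates were separate cultures, so SDs describe the spread between these libraries and may be technical. In bulk libraries of sorted cells, fewer cells of a type and less RNA per cell cannot be told apart.

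Promoter sequence was looked up in a set of RefSeq promoters on GRCm38.p6. The set used here held entries for 6 of the 10 genes, which does not mean that RefSeq lacks the others. Among the 6 were *Sftpb*, *Sftpa1* and *Lamp3*. Of the 10, the latter 2 came closest to *Sftpc* over the 12 libraries once group means were subtracted. Each line gives the 250 bases before the annotated start, in the direction of transcription. Capitals mark matches, on either strand, to CAAGTG (a core letter string of NKX2-1, the lung and thyroid transcription factor; CACTTG on the other strand) or to TGTTTNC (forkhead factors of the FOXA kind; GNAAACA on the other strand). These are chr14:41131538-41131787 on the plus strand for *Sftpa1*, chr6:72304360-72304609 on the plus strand for *Sftpb* and chr16:19706366-19706615 on the minus strand for *Lamp3*.
Sftpa1: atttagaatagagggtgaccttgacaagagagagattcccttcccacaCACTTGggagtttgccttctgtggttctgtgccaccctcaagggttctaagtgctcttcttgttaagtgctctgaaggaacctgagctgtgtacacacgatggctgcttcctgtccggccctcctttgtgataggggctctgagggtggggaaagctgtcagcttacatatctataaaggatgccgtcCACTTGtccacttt
Sftpb: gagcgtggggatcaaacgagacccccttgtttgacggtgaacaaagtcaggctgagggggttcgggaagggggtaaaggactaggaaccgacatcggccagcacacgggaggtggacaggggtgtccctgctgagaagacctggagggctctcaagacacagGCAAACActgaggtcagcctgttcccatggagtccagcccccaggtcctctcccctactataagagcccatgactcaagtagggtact
Lamp3: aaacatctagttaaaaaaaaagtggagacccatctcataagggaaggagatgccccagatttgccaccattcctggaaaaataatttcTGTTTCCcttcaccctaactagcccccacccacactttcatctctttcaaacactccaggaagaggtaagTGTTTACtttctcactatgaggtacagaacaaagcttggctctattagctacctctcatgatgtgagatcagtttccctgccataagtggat
*Sftpa1* held CACTTG at 202 and 14 bases before the start, *Sftpb* held 1 forkhead match at 88 bases before it, and *Lamp3* held forkhead matches at 162 and 92 bases before it. Across all 32851 RefSeq windows of 300 bases (250 before to 50 after the start), 13.6% held CAAGTG and 20.5% held TGTTTNC on either strand. Of the 7 windows of these genes, 1 held CAAGTG (*Sftpa1*) and 3 held TGTTTNC (*Sftpb*, *Lamp3* and 1 of 2 for *Etv5*), and those of *Abca3* and *Cxcl15* held neither. The ETS string CCGGAAG, searched because *Etv5* is an ETS factor, was in 8.86% of all windows and in none of the 7 windows of these genes. Letter matches of this length are descriptions of the sequence and not sites of binding.

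Read totals ran from 13750591 to 19323514 per library, so a count of 0 allowed up to 0.164 to 0.22 CPM (3 reads, counting error only, since amplified reads are not independent molecules). Mitochondrial genes took 1.47% to 3.08% of reads, except in LGR5- replicate 3, where they took 6.93% untreated and 6.44% after 5-FU. The libraries most alike over all genes tested, with the 10 genes left out, were not of the same group: untreated LGR5- replicate 1 and untreated LGR5+ replicate 1 had a root mean square log2 difference of 0.222 and a chi-square per degree of freedom of 4.74, against 0.284 to 0.677 and 16.7 to 137 between libraries of one group. *Lgr5* itself was at 28.8 ± 6.62 CPM in untreated LGR5- and 25.7 ± 2.12 CPM in untreated LGR5+ cells (SD, n = 3 each), so its transcript did not separate the sorted populations.

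Checked against defining markers, the libraries held many but not all of the transcripts of lung and duct epithelium and few of the hepatocyte. *Sftpc* had 46591 to 315963 reads per library and *Nkx2-1* had 714 to 1386. *Hnf4a*, the master hepatocyte transcription factor, had 0 reads in 11 libraries and 2 reads in the other one, transthyretin (*Ttr*) had at most 1 read, fibrinogen beta (*Fgb*) and *Serpina1c* had none in any library, and albumin (*Alb*) had 2 to 33. In all, 6 of 10 hepatocyte markers stayed at 3 reads or fewer in every library, and their summed level was 11.2 to 22.6 CPM in untreated and 26.3 to 56.9 CPM in 5-FU-treated libraries, most of it *Afp*. The duct keratin *Krt19* had 6169 to 76666 reads and *Epcam* 9193 to 26562, genes that bile duct and lung epithelium share. Of the 10 duct markers 4 stayed at 10 reads or fewer in every library, *Onecut1*, *Aqp1*, *Cftr* and *Tff2*. Among leucocyte markers, *Marco*, *Siglecf* and *Chil3*, which mark alveolar or activated macrophages, had no read in any library, and *Ptprc* had 3 to 36. Of 10 alveolar type 1 markers *Pdpn* alone was at 0 in all 12 libraries, 5 of 12 airway markers and 2 of 15 other type 2 markers (*Hc* and *Mlc1*) stayed at 10 reads or fewer, while *Ager* had 245 to 1954 reads and *Aqp5* 1263 to 5482.

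**Figure D1:**
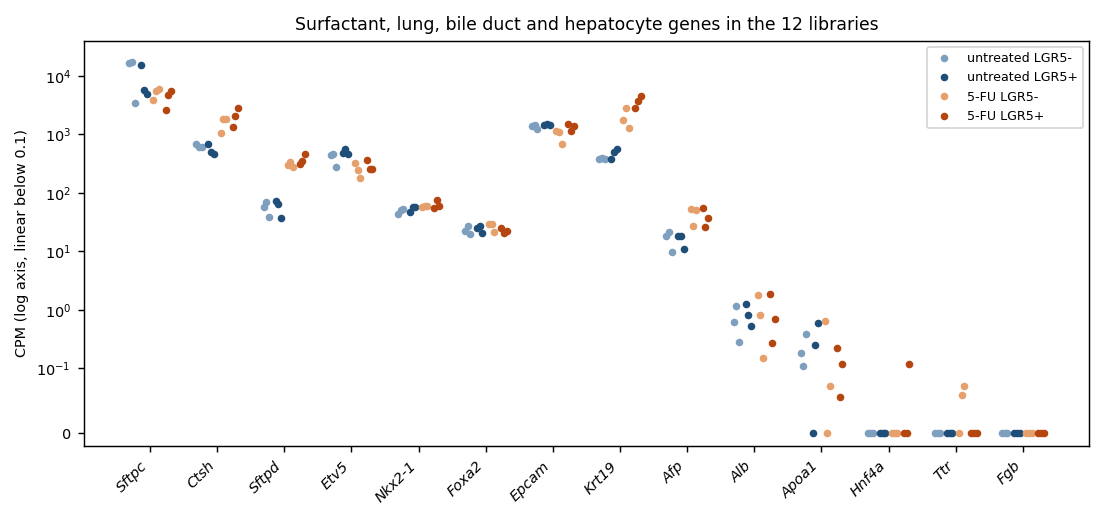
CPM of surfactant, lung, bile duct and hepatocyte genes in the 12 libraries, 1 point per library, coloured by group, on an axis that is logarithmic above 0.1 CPM and linear below it. *Sftpc* lies at the top, between 2616 and 17320 CPM, and *Hnf4a*, *Ttr* and *Fgb* lie at or near 0.

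All 10 genes had enough reads to be among the 16157 genes tested. Compared per length of exon, which allows genes to be set side by side, *Sftpc* stood far above the rest, with a mean of 7405 CPM per kb over the 12 libraries. *Ctsh* followed with 269.1 CPM per kb, then *Etv5* with 87.2, *Sftpd* with 82.3 and *Cxcl15* with 62.3. The lower tier held *Sftpb* with 10.8, *Lamp3* with 9.36, *Sftpa1* with 5.47, *Abca3* with 3.28 and *Napsa* with 3.28. *Etv5* and *Sftpd* changed places with treatment: in untreated LGR5+ cells *Etv5* was at 121.7 ± 12.7 and *Sftpd* at 24.1 ± 7.76 CPM per kb, and after 5-FU they were at 71.5 ± 15.5 and 155.2 ± 33.0 CPM per kb (SD, n = 3 each). *Cxcl15* was above *Sftpd* untreated and below it after 5-FU in both populations, and after 5-FU its mean was above that of *Etv5* by less than 1 SD, at 73.5 ± 24.1 against 60.7 ± 17.2 CPM per kb in LGR5- cells (SD, n = 3 each). The means of *Sftpa1* and *Napsa* were below that of *Abca3* in both untreated groups and above it in both treated ones. Within the lower tier the ranges over libraries of neighbours in this order overlapped, *Sftpb* spanning 4.85 to 14.7 and *Lamp3* 3.83 to 15.1 CPM per kb, whereas *Abca3*, from 2.71 to 3.61, lay below every value of both.

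*Sftpc* (chromosome 14 from 70520949 to 70524081 in the GENCODE M21 annotation of GRCm38) encodes the SP-C precursor. It was the most abundant gene of all in 3 libraries and ranked between 7 and 43 in the other 9. It was at 16430, 17320 and 3437 CPM in untreated LGR5- replicates 1 to 3 and at 15650, 5758 and 4886 CPM in untreated LGR5+ replicates 1 to 3. In treated cells it was at 3934, 5602 and 6031 CPM in LGR5- and at 2616, 4632 and 5594 CPM in LGR5+ cells. The untreated libraries thus split into 3 high ones and 3 low ones that cut across the sort, and the low ones lay among the 5-FU-treated libraries.

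The step between the 3 high libraries (lowest 15650 CPM) and the other 9 (highest 6031 CPM) was 2.59-fold, while the next largest step in the order was 1.31-fold. The 3 high libraries, untreated LGR5- replicates 1 and 2 and untreated LGR5+ replicate 1, were also close to one another over all other genes, with root mean square log2 differences of 0.222, 0.296 and 0.307. Within groups the SD of *Sftpc* was 0.869 on the log2 scale, larger than in 97.7% of all tested genes and 99.4% of the 1800 with over 100 CPM, where the median gene of all tested had 0.331. Group means were 12400 ± 7771 CPM in untreated LGR5-, 8765 ± 5979 in untreated LGR5+, 5189 ± 1108 in 5-FU LGR5- and 4281 ± 1520 in 5-FU LGR5+ cells (SD, n = 3 each).

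Fitted over the groups, *Sftpc* was lower after 5-FU by a log2 difference of -1.03 (standard error 0.55) in LGR5+ and -1.26 (standard error 0.55) in LGR5- cells, and treated and untreated libraries overlapped in both. Single libraries set the size of these values. Without untreated LGR5+ replicate 1 the difference in LGR5+ cells was -0.31 (standard error 0.53). Without untreated LGR5- replicate 3, a library with 6.93% mitochondrial reads, the difference in LGR5- cells was -1.71 (standard error 0.44). With both libraries over 6% mitochondrial reads left out it was -1.82, and with the closest pair of libraries left out it was -0.95 in LGR5- and -0.32 in LGR5+ cells. The part of RNA quality in these values was not tested.

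**Figure D2:**
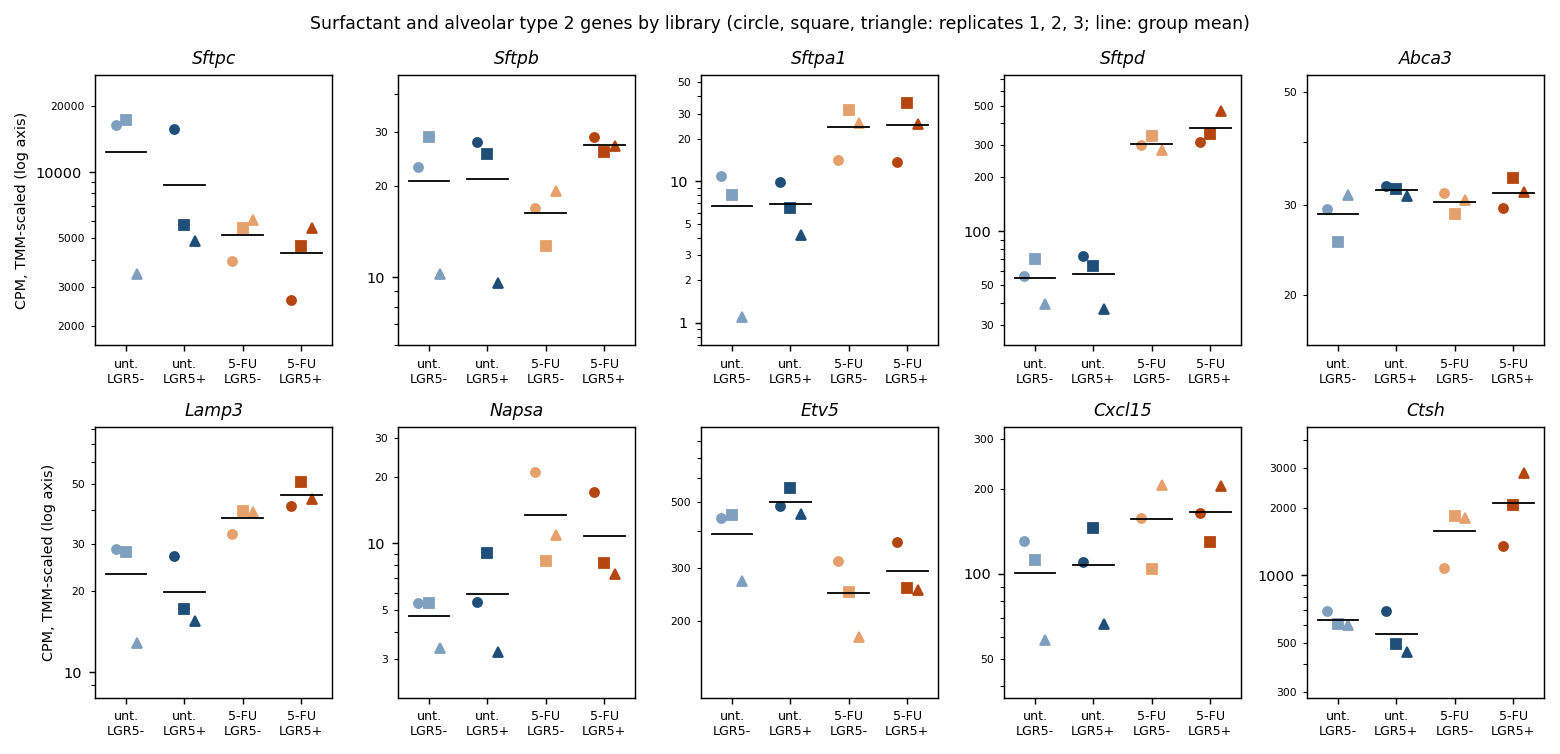
CPM of each of the 10 genes in the 12 libraries, on logarithmic axes with a scale of their own. Points are libraries, symbols are replicate numbers and lines are group means. *Sftpc* is high in 3 untreated libraries, whereas *Sftpd* and *Ctsh* are higher in every 5-FU-treated library than in every untreated one.

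*Sftpb* (chromosome 6 from 72304610 to 72314371) encodes the SP-B precursor, the other hydrophobic surfactant protein. It was at 23.0, 29.0 and 10.3 CPM in untreated LGR5- and at 27.9, 25.5 and 9.55 CPM in untreated LGR5+ replicates 1 to 3. The treated values were 16.9, 12.7 and 19.2 CPM in LGR5- and 28.9, 25.7 and 26.9 CPM in LGR5+ cells. Replicate 3 was the low library of both untreated groups, and treated and untreated libraries overlapped in each population. The log2 difference after 5-FU was 0.38 (standard error 0.37) in LGR5+ and -0.35 (standard error 0.37) in LGR5- cells, of opposite sign and near the size of their errors. Without untreated replicate 3 they were 0.03 and -0.68. The LGR5+ value was 0.64 without untreated replicate 1, and the LGR5- value was -0.04 without untreated replicate 2, -0.21 without 5-FU replicate 2 and -0.81 without both libraries over 6% mitochondrial reads. Where *Sftpb* did separate was between the populations after 5-FU: all 3 LGR5+ libraries lay above all 3 LGR5- libraries, by a log2 difference of 0.74 (standard error 0.37).

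The collectin genes lie near each other on chromosome 14, *Sftpa1* (SP-A) from 41131782 to 41136452 and *Sftpd* (SP-D) from 41172214 to 41185149 on the other strand, 35761 bases apart and 29.3 Mb from *Sftpc*. *Sftpd* was at 56.5, 69.9 and 39.3 CPM in untreated LGR5- and at 73.3, 64.1 and 37.2 CPM in untreated LGR5+ libraries. In cells treated with 5-FU it was at 301.1, 338.4 and 282.1 CPM in LGR5- and at 312.2, 348.1 and 464.8 CPM in LGR5+ libraries. No treated library came near an untreated one: the highest untreated value was 73.3 and the lowest treated value 282.1 CPM. The log2 difference was 2.69 (standard error 0.28) in LGR5+ and 2.48 (standard error 0.28) in LGR5- cells, and over 15 other ways of fitting it lay between 2.45 and 2.89 and between 2.28 and 2.68.

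*Sftpa1* was at 11.0, 8.06 and 1.11 CPM in untreated LGR5- and at 9.92, 6.51 and 4.18 CPM in untreated LGR5+ libraries. After 5-FU it was at 14.2, 32.2 and 25.9 CPM in LGR5- and at 13.7, 35.6 and 25.4 CPM in LGR5+ libraries. Every treated library lay above every untreated one, and replicate 1 was the low library of both treated groups. Both log2 differences were 1.85 (standard error 0.63). The SD within groups, 0.99 on the log2 scale, exceeded that of 99% of tested genes. Without 5-FU replicate 1 of the same population the difference was 2.15 in LGR5+ and 2.11 in LGR5- cells. *Mbl1*, a further collectin gene between the pair, had 0 to 3 reads per library and could not be tested. On the far side of *Sftpa1*, *Mat1a* had 45 to 160 reads and did not pass the test after 5-FU (log2 fold change 0.46 with adjusted P = 0.419 in LGR5+ and 0.13 with adjusted P = 0.851 in LGR5- cells, edgeR).

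*Abca3* and *Lamp3* encode membrane proteins of the lamellar body. *Abca3* (chromosome 17 from 24351950 to 24410201), the transporter that carries phospholipid into it, was the steadiest of the 10. Its 12 values lay between 25.4 and 33.9 CPM, and its SD within groups, 0.099 on the log2 scale, was smaller than in all but 0.65% of tested genes. Its log2 difference after 5-FU was -0.01 (standard error 0.15) in LGR5+ and 0.08 (standard error 0.15) in LGR5- cells. Small genes on the opposite strand overlap *Abca3*, *Napsa* and *Cxcl15*, and strand handling in the counting is not given in the sources used here.

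*Lamp3* (chromosome 16 from 19653378 to 19706375), a lysosomal membrane glycoprotein, was at 28.7, 28.0 and 12.9 CPM in untreated LGR5- and at 27.0, 17.1 and 15.5 CPM in untreated LGR5+ libraries. In 5-FU-treated cells it was at 32.6, 39.7 and 39.2 CPM in LGR5- and at 41.4, 50.8 and 44.0 CPM in LGR5+ libraries. Among the untreated libraries the 3 highest in *Lamp3* were the 3 highest in *Sftpc*, and every treated library was above every untreated one. The log2 difference after 5-FU was 1.19 (standard error 0.28) in LGR5+ and 0.68 (standard error 0.27) in LGR5- cells. Without untreated LGR5+ replicate 3 the first was 1.05, and without untreated LGR5- replicate 3 the second was 0.39. After 5-FU, LGR5+ libraries lay above LGR5- libraries by 0.29 (standard error 0.27).

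*Napsa* (chromosome 7 from 44572380 to 44586862) and *Ctsh* (chromosome 9 from 90054152 to 90076089) encode napsin A and cathepsin H, the proteases that trim the SP-B and SP-C precursors. *Ctsh* was at 689.6, 606.2 and 598.7 CPM in untreated LGR5- and at 691.4, 491.9 and 454.2 CPM in untreated LGR5+ libraries. After 5-FU it was at 1072, 1836 and 1801 CPM in LGR5- and at 1349, 2068 and 2873 CPM in LGR5+ libraries. The groups were apart in both populations, with replicate 1 the lowest of each treated group. The log2 difference was 1.94 (standard error 0.30) in LGR5+ and 1.31 (standard error 0.30) in LGR5- cells, from 1.65 to 2.18 and from 1.17 to 1.52 over the other fits.

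*Napsa* was lower and more uneven. It was at 5.39, 5.37 and 3.38 CPM in untreated LGR5- and at 5.42, 9.02 and 3.22 CPM in untreated LGR5+ libraries, and after 5-FU at 21.0, 8.36 and 10.9 CPM in LGR5- and at 17.0, 8.13 and 7.30 CPM in LGR5+ libraries. Replicate 1 was the highest treated library in both populations, the reverse of *Ctsh* and *Sftpa1*. The log2 difference was 1.51 (standard error 0.43) in LGR5- cells, where the groups did not overlap, and 0.88 (standard error 0.43) in LGR5+ cells, where they did. The former was 1.62, 1.62 and 1.32 with untreated LGR5- replicate 1, 2 or 3 left out and 1.03 without 5-FU LGR5- replicate 1. The LGR5+ value was 0.39 without 5-FU LGR5+ replicate 1 and 1.32 without untreated LGR5+ replicate 2.

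*Etv5* (chromosome 16 from 22381309 to 22439719), an ETS transcription factor induced by FGF and ERK signaling that maintains type 2 identity in the lung, was the other gene with lower values after 5-FU. It was at 443.0, 454.1 and 272.5 CPM in untreated LGR5- and at 483.3, 557.5 and 456.9 CPM in untreated LGR5+ libraries. After 5-FU it was at 318.7, 250.7 and 177.6 CPM in LGR5- and at 366.9, 259.0 and 254.5 CPM in LGR5+ libraries. All treated LGR5+ libraries were below all untreated ones, whereas the LGR5- groups overlapped through untreated replicate 3. The log2 difference was -0.77 (standard error 0.26) in LGR5+ and -0.65 (standard error 0.26) in LGR5- cells. It was -0.96 in LGR5+ cells without 5-FU LGR5+ replicate 1 and, in LGR5- cells, -0.85 without untreated replicate 3 and -0.42 without 5-FU replicate 3.

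*Cxcl15* (chromosome 5 from 90794534 to 90803067), known as lungkine, encodes a neutrophil-attracting chemokine of lung epithelium. Its values ran from 58.4 to 145.2 CPM in untreated and from 104.3 to 206.9 CPM in treated libraries, and the groups overlapped in both populations. The log2 difference was 0.63 (standard error 0.34) in LGR5+ and 0.64 (standard error 0.34) in LGR5- cells. Without untreated replicate 3 these were 0.38 and 0.36, without 5-FU replicate 3 the LGR5- value was 0.42, and without both libraries over 6% mitochondrial reads it was 0.11. Replicate 3 was again the low library of both untreated groups, at 58.4 and 66.4 CPM, and the highest of both treated groups, at 206.9 and 204.1 CPM.

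**Figure D3:**
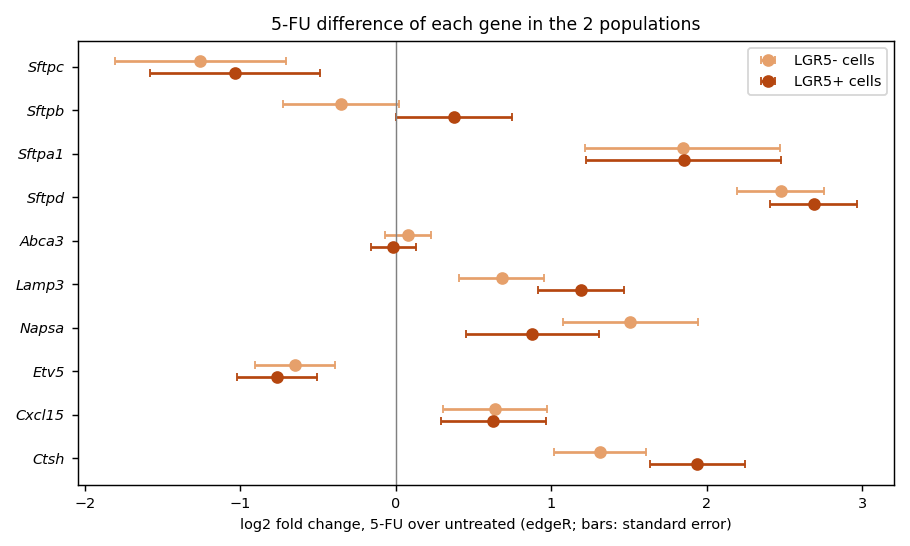
Log2 fold change of 5-FU-treated over untreated cells for each of the 10 genes, in LGR5- and LGR5+ cells, with bars of 1 standard error from edgeR's fit of all genes. *Sftpd* lies farthest to the right, at 2.69 and 2.48, *Abca3* lies close to 0, and *Sftpc* and *Etv5* lie to the left.

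Set against *Sftpc*, the other 9 genes did not all move in its direction after 5-FU, and only *Etv5* was lower in both populations. Of the 10, 3 were past an adjusted P under 0.05 in LGR5+ cells (*Sftpd*, *Lamp3* and *Ctsh*) and 3 in LGR5- cells (*Sftpd*, *Napsa* and *Ctsh*), all of them higher. Of all tested genes, 16% were past it in LGR5+ cells (9.66% higher and 6.37% lower) and 15.4% in LGR5- cells (8.3% higher and 7.11% lower). Since the genes were chosen with this comparison known, nothing is read from that count, and single libraries changed it. In LGR5+ cells *Lamp3* left it without untreated replicate 3, and *Sftpa1* and *Etv5* entered it without 5-FU replicate 1. In LGR5- cells *Napsa* left it without any of the untreated libraries or 5-FU replicate 1, *Sftpc* and *Etv5* entered it without untreated replicate 3, and *Sftpa1* entered it without 5-FU replicate 1. *Etv5* was also counted with replicate number as a block in both populations, and in LGR5+ cells with DESeq2, without a filter, with at least 10 reads in every library, with library size only and with the compared libraries alone. Without the libraries over 6% mitochondrial reads, *Etv5* and *Sftpa1* entered the count in LGR5+ cells, and *Sftpc* and *Etv5* entered it and *Napsa* left it in LGR5- cells. *Sftpa1* was also counted with at least 10 reads in every library in both populations, with library size only in LGR5- cells and with the compared libraries alone in LGR5+ cells. *Napsa* left the count without a filter and without the closest pair of libraries. Treated and untreated groups did not overlap for 5 of the 10 in LGR5+ cells (4 above, *Etv5* below) and for 5 in LGR5- cells (all above). Of all tested genes, 42.3% did not overlap in LGR5+ cells (22.3% above and 20% below) and 27.1% in LGR5- cells (13.7% above). The median log2 difference of the 10 was 0.75 in LGR5+ and 0.66 in LGR5- cells, beside -0.02 and -0.05 over all genes.

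Between the populations, none of the 10 genes was past an adjusted P under 0.05, and neither was any other gene, before or after 5-FU (0% of genes tested in each, edgeR; 214 genes untreated and 2095 after 5-FU at an unadjusted P under 0.05). *Etv5* was higher in every untreated LGR5+ than in every untreated LGR5- library, by a log2 difference of 0.36 (standard error 0.26), where 5.28% of all genes did not overlap, 2.7% with LGR5+ above. *Sftpb* and *Lamp3* were the genes that did not overlap after 5-FU, both with LGR5+ above, as were 14.2% of all genes, and 24.4% of all genes did not overlap in either direction. Same-numbered 5-FU-treated libraries deviated together, though their labels give numbers only and state no pairing. With these 6 libraries alone and replicate number as a block, 451 genes passed. Among them was *Sftpb*, with a log2 difference of 0.69 (standard error 0.16). That fit was chosen after the data were seen, and the block over all 12 libraries gave 0 genes. Nothing is read from the call of *Sftpb*. Over all 12 libraries without a block, DESeq2 called 92 genes in this comparison and 0 of the 10. The difference between the responses to 5-FU in LGR5+ and in LGR5- cells passed for none of the 10 and for 0% of all genes (254 at an unadjusted P under 0.05, edgeR). Its largest values among the 10 were 0.73 (standard error 0.53) for *Sftpb*, 0.63 (standard error 0.41) for *Ctsh* and -0.63 (standard error 0.60) for *Napsa*.

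Among the untreated libraries, *Lamp3*, *Sftpa1* and *Ctsh* had their 3 highest values in the 3 libraries highest in *Sftpc*, as did 16.8% of all tested genes. The 3 libraries high in *Sftpc* had 27.0 to 28.7 CPM of *Lamp3*, and the other 3 untreated libraries had 12.9 to 17.1. For *Sftpa1* the same 3 had 8.06 to 11.0 CPM and the others 1.11 to 6.51. *Ctsh* was at 606.2 to 691.4 CPM in the 3 and at 454.2 to 598.7 CPM in the others, a narrow gap. *Abca3* did not share the split: the 3 high libraries had 25.4, 29.4 and 32.7 CPM, and the others 31.2 to 32.3. *Etv5* was at 443.0 to 483.3 CPM in the 3 high libraries and at 272.5 to 557.5 CPM in the others, a range that contained them.

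Because *Sftpc* put the libraries in separate sets of 3 and 9, no plain r over all 12 is given for the 10 genes, and values with group means subtracted still carry that split among the untreated libraries. Over the 9 libraries without the high set, Pearson's r with *Sftpc* on log2(CPM + 1) lay between -0.219 (*Napsa*) and 0.364 (*Sftpa1*) and Spearman's rho between -0.35 (*Etv5*) and 0.35 (*Sftpa1*). With the 2 libraries farthest from the median also left out (untreated LGR5- replicate 3 and 5-FU LGR5+ replicate 1), r lay between -0.374 (*Abca3*) and 0.243 (*Cxcl15*). These are descriptions over libraries that span 4 groups and share their depth and scaling.

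Of all tested genes, those most like *Sftpc* over the 12 libraries were not surfactant genes. *Fpgs*, which encodes folylpolyglutamate synthase, the enzyme that retains folates in cells, came first with r = 0.977, followed by *Erh* (0.945), *Asf1a* (0.938), *Cd320* (0.936) and *Mcrip2* (0.929). These r values rest on the same split of libraries. *Fpgs* was at 16.2, 16.3 and 16.5 CPM in the 3 libraries high in *Sftpc* and between 8.09 and 12.1 CPM in the other 9. Over those 9 its r was 0.89, and 0.596 with the 2 farthest libraries left out, beside 0.698 and 0.698 for *Erh* and 0.614 and 0.753 for *Asf1a*. With group means subtracted first, the 4 genes most like *Sftpc* were *Clic3* (0.985), *Fpgs* (0.981), *Atp6v0a2* (0.974) and *Ppp1r14b* (0.968). Of the 9 other surfactant and type 2 genes, *Lamp3* was at 0.959, *Sftpa1* at 0.914, *Sftpd* at 0.791 and *Sftpb* at 0.716. Next were *Ctsh* at 0.605, *Cxcl15* at 0.558, *Etv5* at 0.207, *Napsa* at -0.0287 and *Abca3* at -0.3. Their percentiles among all tested genes were 100 (rounded) for *Lamp3*, 99.6 for *Sftpa1*, 96.1 for *Sftpd* and 92.6 for *Sftpb*. The others were at 86.6 (*Ctsh*), 84 (*Cxcl15*), 64.5 (*Etv5*), 52.1 (*Napsa*) and 37.4 (*Abca3*). Over the 9 libraries outside the high set, r without that subtraction was 0.0769 for *Lamp3*. It was 0.113 for *Clic3*, 0.0247 for *Atp6v0a2* and 0.419 for *Ppp1r14b*. The values of the 10 genes moved without untreated LGR5- replicate 3, when *Lamp3* was at 0.898, *Ctsh* at 0.842, *Sftpa1* at 0.787, *Sftpd* at 0.709, *Sftpb* at 0.461, *Abca3* at 0.261, *Cxcl15* at 0.209, *Napsa* at -0.388 and *Etv5* at -0.506. Within the 6 untreated libraries, again with group means subtracted, *Lamp3* was at 0.998, *Sftpa1* at 0.948, *Sftpb* at 0.826 and *Sftpd* at 0.816. *Etv5* was at 0.755, *Cxcl15* at 0.705, *Ctsh* at 0.681, *Napsa* at 0.426 and *Abca3* at -0.51. Within the 6 libraries after 5-FU, *Ctsh* was at 0.968, *Sftpa1* at 0.838, *Sftpd* at 0.678, *Lamp3* at 0.677 and *Abca3* at 0.333. *Cxcl15* was at 0.121, *Sftpb* at -0.215, *Etv5* at -0.854 and *Napsa* at -0.921. Same-numbered treated libraries deviated together, with *Sftpc* lowest in replicate 1 of both groups, so these 6 are not independent points. Without that subtraction r there was 0.763 for *Sftpa1*, 0.631 for *Ctsh* and 0.118 for *Lamp3*.

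**Figure D4:**
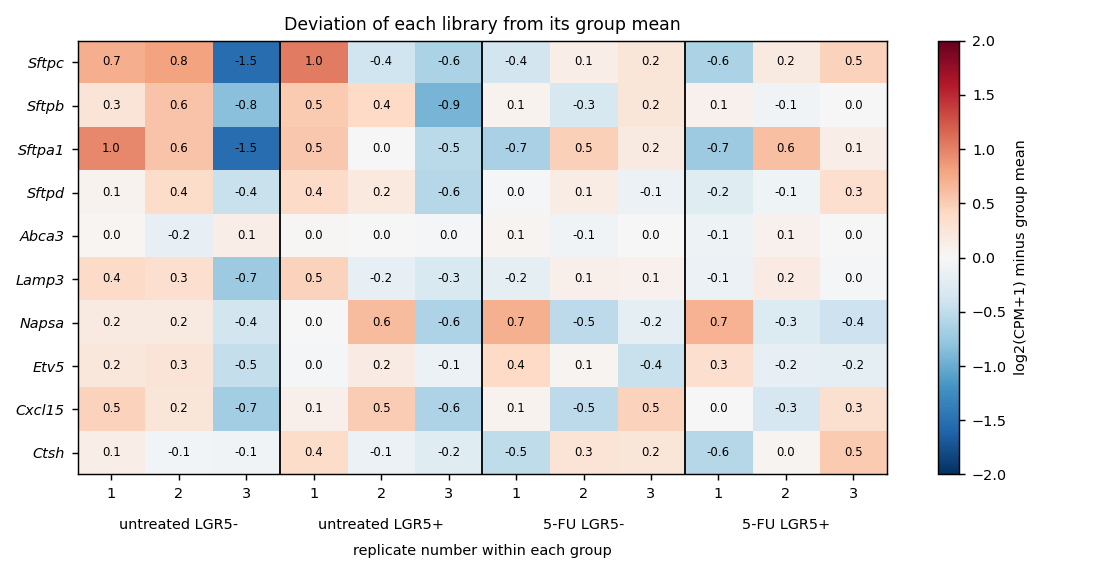
Log2(CPM + 1) of each of the 10 genes in each library minus the mean of its group, as colour and number, with groups separated by lines. *Sftpc*, *Sftpa1* and *Lamp3* are above their group mean in the same 3 untreated libraries and farthest below it in untreated LGR5- replicate 3, and *Abca3* stays near 0 throughout.

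Genes of the same pathway outside the 10 were taken from lists written from general knowledge with earlier results of these data known, so their counts and P values are not independent evidence. They were tested after 5-FU with edgeR's quasi-likelihood test, adjusted over all 16157 genes, of which 9.66% rose and 6.37% fell in LGR5+ and 8.3% rose and 7.11% fell in LGR5- cells. Of 13 other alveolar type 2 markers tested, 6 rose in LGR5+ and 5 in LGR5- cells and none fell. *Sfta2*, a small secreted protein of type 2 cells, rose from 67.6 ± 9.77 to 181.0 ± 76.1 CPM (SD, n = 3 each) in LGR5- cells, with a log2 difference of 1.42 (standard error 0.25; adjusted P of edgeR 0.00206). *Lyz2*, a lysozyme that macrophages also make, rose by 3.56 on the log2 scale in LGR5- cells (standard error 0.37, adjusted P = 4.44e-05, edgeR). *Il33*, an alarmin cytokine, rose by 1.22 (standard error 0.20, adjusted P = 0.000743, edgeR) in LGR5+ cells. The median log2 fold change of this list was 0.66 in LGR5+ and 0.63 in LGR5- cells.

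Of 15 genes of surfactant lipid synthesis and lamellar body traffic, 4 rose in LGR5+ and 2 in LGR5- cells and none fell. They included *Rab38*, a small GTPase of lamellar body biogenesis (log2 fold change 1.24, adjusted P = 0.00692 in LGR5+ cells, edgeR), *Pcyt1b*, an isoform of the rate-limiting enzyme of phosphatidylcholine synthesis (1.20, adjusted P = 0.00947 in LGR5+ cells, edgeR), and *Scap*, the escort of SREBP factors (0.78, adjusted P = 0.00582 in LGR5- cells, edgeR). The list's median was 0.19 and 0.09. Of 13 genes of surfactant protein processing and turnover, 6 rose in LGR5+ and 2 in LGR5- cells and none fell. *Ctsd*, the lysosomal cathepsin D, rose from 422.5 ± 15.5 to 2306 ± 563 CPM (SD, n = 3 each) in LGR5+ cells, which was 2.45 on the log2 scale (standard error 0.29, adjusted P = 5.8e-05, edgeR). *Nedd4l*, a ubiquitin ligase that sorts the SP-C precursor, rose by 0.82 (adjusted P = 0.00236, edgeR) and *Itm2b*, which shares the BRICHOS fold with that precursor, by 0.89 (adjusted P = 0.013, edgeR) in LGR5+ cells. The call of *Itm2b* was lost without untreated LGR5+ replicate 3 (adjusted P = 0.0606, edgeR), without 5-FU LGR5+ replicate 3 (adjusted P = 0.0811, edgeR) and without the closest pair of libraries (adjusted P = 0.0721, edgeR).

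Most of the ETS and feedback genes that act beside *Etv5* did not pass the threshold, and those that did went in both directions. Of 14 FGF receptor and ERK feedback genes, 1 rose and 2 fell in LGR5+ cells, and 2 rose and 3 fell in LGR5- cells. *Etv4*, an ETS factor of the same subfamily, fell by 1.24 on the log2 scale (standard error 0.25, adjusted P = 0.00383, edgeR) in LGR5+ cells, from 23.3 ± 4.61 to 9.86 ± 3.68 CPM (SD, n = 3 each). *Etv1*, the third factor of that subfamily, rose by 1.36 (adjusted P = 0.0101, edgeR) in LGR5- cells, a call lost without the closest pair of libraries (adjusted P = 0.0513, edgeR), and *Spry1*, an ERK inhibitor, rose by 0.95 (adjusted P = 0.00648, edgeR) in LGR5+ cells. Of 12 lung and foregut transcription factors, none passed in LGR5- cells and 1 fell in LGR5+ cells, *Tbx4*, which had 8 to 21 reads per untreated and 0 or 1 per treated LGR5+ library and could pass the filter on low counts only through libraries where it was high, so nothing is read from that call. *Nkx2-1* was at 54.2 ± 5.72 CPM in untreated and 63.2 ± 11.4 CPM in 5-FU-treated LGR5+ cells (SD, n = 3 each).

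Some markers of neighbouring cell types also rose. Of 9 alveolar type 1 markers tested, 5 rose in each population and none fell, among them *Hopx* (log2 fold change 1.35, adjusted P = 0.000763 in LGR5- cells, edgeR), *Akap5* (1.56, adjusted P = 0.000442 in LGR5+ cells, edgeR) and *Cav1* (1.58, adjusted P = 0.000619 in LGR5+ cells, edgeR). Of 7 airway markers, 4 rose in each population and none fell, including the club cell cytochrome *Cyp2f2* (2.99, adjusted P = 8.44e-06 in LGR5+ cells, edgeR), the basal keratin *Krt5* (3.38, adjusted P = 0.000346, edgeR) and *Bpifb1* (1.69, adjusted P = 0.0156, edgeR). The call of *Bpifb1* was lost without untreated LGR5+ replicate 2 or 3 or 5-FU LGR5+ replicate 3 (adjusted P = 0.0723, 0.0622 and 0.0614, edgeR), and also without a filter (adjusted P = 0.113, edgeR) or with the compared libraries alone (adjusted P = 0.0524, edgeR). Of 6 bile duct markers, 3 rose in each population, *Krt19* by 2.94 (adjusted P = 2.05e-05, edgeR), *Krt7* by 2.64 (adjusted P = 0.000127, edgeR) and *Cldn4* by 1.95 (adjusted P = 0.000366, edgeR) in LGR5+ cells.

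Of 10 markers each, 6 hepatocyte, 6 leucocyte and 5 endothelial and fibroblast markers stayed at 10 reads or fewer in every library. Of 3 hepatocyte markers tested, 1 rose in each population, *Afp*, by 1.43 (adjusted P = 0.0118, edgeR) in LGR5- cells, a call lost without the libraries over 6% mitochondrial reads (1.05, adjusted P = 0.107, edgeR). Of 3 leucocyte markers, 1 rose in each population, *Cd68*, a lysosomal glycoprotein, by 2.06 (adjusted P = 0.00173, edgeR) in LGR5+ cells. The summed level of the 10 leucocyte markers was 6.63 to 14.3 CPM in untreated and 18.0 to 54.9 CPM in treated libraries. Most of it was *Cd68*, at 5.93 to 52.3 CPM over the 12 libraries, and no other of them was above 2.02 CPM (*Ptprc*). Of 3 endothelial and fibroblast markers, 1 fell in each population, *Pdgfrb*, by 1.24 (adjusted P = 0.0241, edgeR) in LGR5- cells, a call lost without untreated LGR5- replicate 3 or 5-FU LGR5- replicate 2 or 3 (adjusted P = 0.0606, 0.056 and 0.095, edgeR), without the libraries over 6% mitochondrial reads (adjusted P = 0.139, edgeR) or with the compared libraries alone (adjusted P = 0.0883, edgeR). *Dcn*, a proteoglycan of fibroblasts, had 430 to 870 reads, and the summed level of the 10 endothelial and fibroblast markers was 28.3 to 63.5 CPM. Over the 132 listed genes, of which 98 could be tested, 35 passed in LGR5+ and 29 in LGR5- cells, beside 16% and 15.4% of all tested genes, and none passed between the populations or for the difference between responses. Sorting in the study gated leucocytes out by CD45 staining. The part of leucocyte RNA in the values of *Lyz2* and *Cd68* was not tested.

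**Figure D5:**
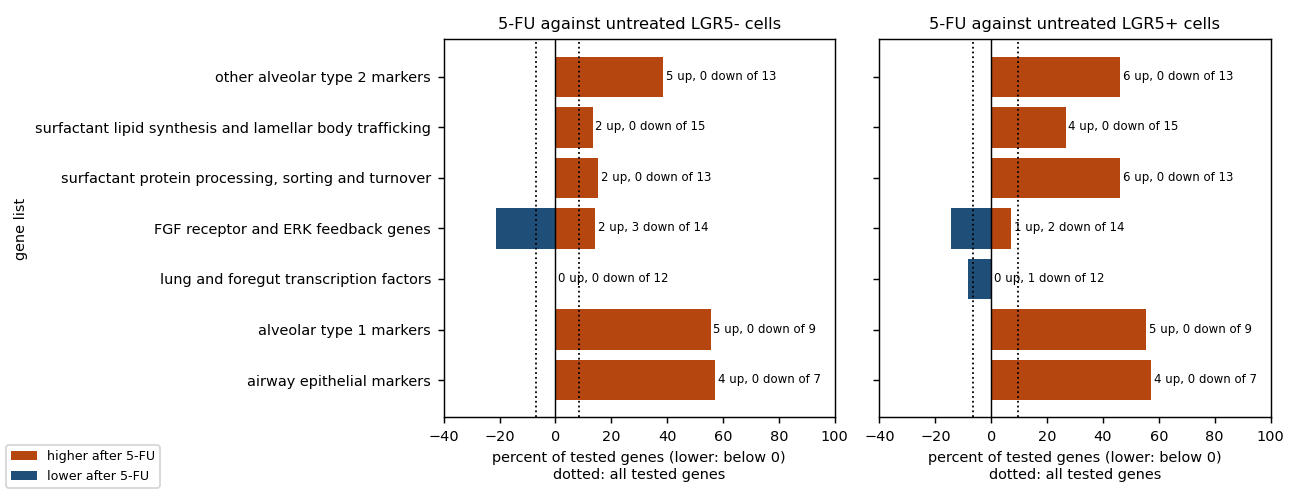
Share of the tested genes of each list that were higher (to the right of 0) or lower (to the left) after 5-FU at an adjusted P under 0.05, in LGR5- and LGR5+ cells, with the counts beside the bars and the shares over all tested genes as dotted lines. Other alveolar type 2 markers rose for 5 of 13 and 6 of 13 genes and none fell.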

How the data were processed

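RNA of sorted cells went through SMARTer amplification and paired-end sequencing. The authors deposited whole-number read counts per Ensembl gene for the 12 libraries, without normalization. The submitters' processing notes name HISAT2, HISAT, TopHat2, HTSeq and the build mm8, with no versions or roles. Gene symbols and positions came from GENCODE M21 (GRCm38), which matched 46488 of 47069 identifiers, so positions describe the annotation and not the authors' counting. The 10 genes and all gene lists were chosen with earlier results of these data known.

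Counts were analysed in R 4.3.3 with edgeR 4.0.16: filterByExpr (16157 genes kept), TMM scaling, and robust glmQLFit and glmQLFTest on 4 group means, with Benjamini-Hochberg adjustment over all genes. Standard errors are the log2 fold change divided by the square root of F. CPM are TMM-scaled. The fit was tested on simulated data. Alternatives were DESeq2 1.42.0 and its size factors (RLE), library size only, a minimum of 10 reads in all libraries, no filter, a block on replicate number, a fit of the compared libraries alone, each library left out, and 3 chosen after seeing the data. All 3 same-numbered pairs deviated together between the populations after 5-FU (correlations 0.291 to 0.686 over genes), but not between them untreated (-0.112 to 0.593) or across treatment (-0.206 to 0.0189 in LGR5+, 0.0781 to 0.466 in LGR5-). Named genes were the 10, *Lgr5*, up to 3 called genes per list with the smallest P, markers at 0, and the 5 genes most like *Sftpc* by each measure of r, of which 1 is not reported here.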

Additional observations from a re-analysis of the deposited data

How the results depend on the processing

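No value of the 10 genes changed sign where it had been called, and *Sftpd* and *Ctsh* were in the count past an adjusted P under 0.05 (edgeR or DESeq2) after 5-FU in both populations under all alternatives run. For 5-FU in LGR5+ cells, 5 of the 10 genes passed in place of 3 with at least 10 reads in every library, with only the libraries compared (4045 genes in all, in place of 2590) and with both libraries over 6% mitochondrial reads left out (4448 genes), *Sftpa1* and *Etv5* being added each time. With single libraries left out, 1373 to 2488 genes, 2 to 5 of the 10 and 23 to 33 of the other listed genes passed there. For 5-FU in LGR5- cells, 1282 genes passed with only the libraries compared and 1439 with the closest pair of libraries left out, in place of 2489. With single libraries left out, 1562 to 3418 genes, 2 to 4 of the 10 and 19 to 27 listed genes passed. Between the populations after 5-FU, where the fit above called none, 11 genes passed without a filter and 92 with DESeq2 (1 of them a listed gene). There, the replicate block with 5-FU libraries alone gave 451 genes, 1 of the 10 and 6 other listed genes, and the replicate block over all 12 libraries gave 0. For 5-FU, that block gave 2967 genes and 4 of the 10 in LGR5+ cells and 2891 genes and 4 of the 10 in LGR5- cells, and there same-numbered libraries did not all deviate together. The cause of these shifts was not tested. The lowest count of the 10 genes was 20 reads (*Sftpa1*), and 34 of the 132 listed genes did not pass the filter on low counts. The part of depth in these results was not tested.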
